A study of Mus musculus with 6 samples.

Results

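The antibody heavy- and light-chain rearrangements of bone-marrow B cell precursors from wild-type mice of 100 weeks were compared with those from wild-type mice of 12 weeks. Members were all cells with a productive heavy (IGH), kappa (IGK) or lambda (IGL) contig in the V(D)J library of either age, and each cell was read by its contig of most UMIs per locus. This gave 11986 cells, 7437 at 12 weeks and 4549 at 100 weeks, of 13772 such cells in the 3 V(D)J libraries of the study. The mice were C57BL/6 with wild-type genotype. Each library came from marrow pooled from 2 mice and sorted for cells with B220 and without surface IgM and IgD, T cell (CD3e, CD8a), myeloid (CD11b, F4/80, Gr-1) or NK cell (CD49b) markers. With 1 library a side there is no replicate, no test between the ages was made, and differences between the pools and between single mice cannot be told apart from age. Shares are given with exact Clopper-Pearson 95% intervals, which cover counting error only. For a count of 0 the upper limit printed is the share that 3 counts of the total would make.

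A heavy-chain gene is assembled in developing B cells from 1 V, 1 D and 1 J segment. The RAG enzymes cut beside the segments, D joins J first and V joins DJ next, and terminal transferase (Dntt) adds untemplated bases at the joints. The joint encodes CDR3, the loop at the centre of the antigen-binding site. Cells whose heavy chain pairs with the surrogate light chain pass on and then rearrange kappa and, less often in the mouse, lambda. The constant gene read here is that of the transcript, so IGHM transcripts are found in cells that show no IgM at the surface. Class-switched constant genes (IGHG, IGHA, IGHE) belong to cells that have met antigen, and such cells are described apart.

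The segments on which the results turn are shown first, read as the consensus of the deposited CDR3 sequences of both libraries, 5′ to 3′. The J starts run to the conserved tryptophan codon in capitals, and the 2 D cores are those whose shares differed most in percentage points. A consensus can hold bases common at the joint, so its ends need not be those of the gene.
IGHJ1: ctactggtacttcgatgtcTGG
IGHJ2: tactactttgactacTGG
IGHJ3: gcctggtttgcttacTGG
IGHJ4: tattactatgctatggactacTGG
IGHD1-1: ttattactacggtagtagctacg
IGHD4-1: aactgggacg
On chromosome 12 of GRCm38.p6 (RefSeq positions) the transcribed order runs toward lower coordinates. IGHD4-1 (113430528 to 113430538) lies nearest the J genes, IGHJ1 (113429781 to 113429833) is the first J gene, and IGHJ4 (113428514 to 113428567) is the last. IGHD1-1 (113482170 to 113482192) lies on the V side.

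The libraries differed in size and makeup, and median UMIs per chain were lower at 100 weeks. Heavy chains were read in 7311 and 4366 cells at 12 and 100 weeks, with a median of 18 and 14 UMIs, kappa chains in 1708 and 1259 cells (medians 17 and 15) and lambda chains in 260 and 161 (43.5 and 33). More than 1 productive heavy contig was found in 5.87% and 5.25% of heavy-chain cells, and 71 barcodes occurred in both libraries. Of cells with a heavy and no light chain in the gene-expression libraries, 99.8% and 99.6% carried at least 2 of 4 B-lineage markers (Cd79a, Cd79b, Ebf1, Pax5), and the summed level of 3 T cell markers was 1.77 and 0.773 CPM (UMIs scaled to a common total), with Cd3e at 0 at 100 weeks. Summed markers of neutrophils were at 0.466 and 1.29 CPM and of NK cells at 8.78 and 9.69 CPM. Those of plasmacytoid dendritic cells, a list that holds genes B cells also express, were at 517 and 501 CPM. Plasma cell markers stood at 781 and 735 CPM, and mature B markers (Fcer2a, Fcmr, Ms4a1, H2-Aa, Ighd) at 289 and 236 CPM. Of these cells, 54.1% and 50.0% carried at least 2 of 4 small pre-B markers (Rag1, Rag2, Il2ra, Cd74). At least 2 of 5 pro-B markers (Dntt, Kit, Igll1, Vpreb1, Il7r) were found in 29.0% and 44.5% of these cells. The 12-week pool held 4608 unswitched heavy-chain cells with Y-linked UMIs alone and 0 with Xist alone, whereas the 100-week pool held 1759 and 914, so that only the older pool mixed the sexes. Labels give no sex, and the main results are also given for the Y-linked cells.

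Heavy chains of the 100-week library used the last J gene less and the first ones more. IGHJ4 was carried by 32.1% of the 7297 unswitched cells at 12 weeks (31.0 to 33.1) and by 22.2% of the 4295 at 100 weeks (20.9 to 23.4), a ratio of 0.692. IGHJ2 was carried by 25.1% (24.1 to 26.1) and 31.9% (30.6 to 33.4). IGHJ1 was carried by 16.7% (15.9 to 17.6) and 21.0% (19.8 to 22.3). These 3 genes thus had intervals that did not overlap between the ages, and IGHJ4 went from the most used J gene at 12 weeks to the third at 100 weeks. IGHJ3, at 26.2% and 24.8%, had overlapping intervals.

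Among the named D genes the ratio between ages was largest for the one nearest the J cluster. IGHD4-1, the shortest D gene named here at 11 bases, was called in 4.88% of 6697 cells with a D call at 12 weeks (4.38 to 5.43) and in 8.73% of 3965 at 100 weeks (7.87 to 9.65), a ratio of 1.79. IGHD1-1, the most used and among the longest at 23 bases, was called in 43.8% (42.57 to 44.96) and 38.5% (36.94 to 39.9965). IGHD2-7 was at 4.24% and 5.75%, also with intervals apart. The other D genes with at least 100 cells differed less: IGHD2-3 was at 12.5% and 12.0%, IGHD2-4 at 12.7% and 12.4%, IGHD2-6 at 7.24% and 7.92%, and IGHD2-8 at 5.72% and 5.80%. IGHD3-2 was at 4.51% and 3.73%, IGHD3-1, the D gene farthest toward the V side among those named, at 1.66% and 2.14%, and IGHD5-7 at 1.55% and 1.77%. Members of the IGHD2 family are near-identical in sequence, so calls within it are uncertain, while the family as a whole stood at 42.4% and 43.8%. No D gene was called in 600 cells (8.22%) and 330 cells (7.68%).

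**Figure D1:**
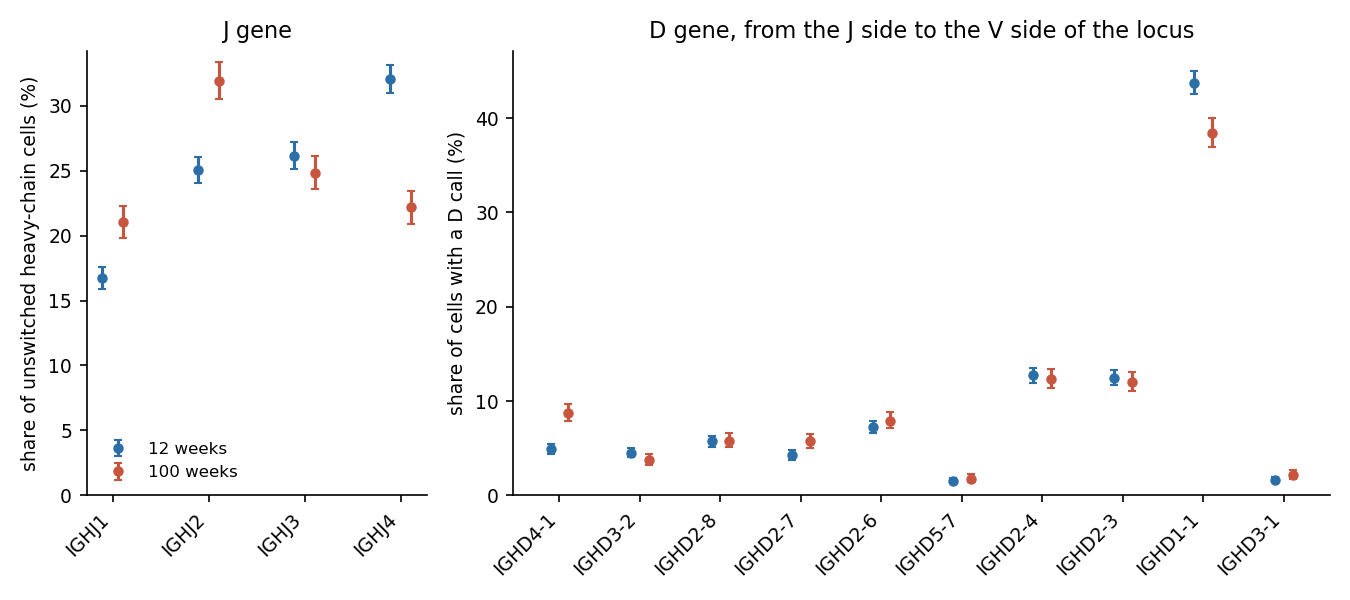
Share of cells (%) by heavy-chain J gene (left) and D gene (right, ordered along the locus), with points for the 12-week and 100-week libraries and bars for exact 95% intervals of counting error. IGHJ4 and IGHD1-1 are lower and IGHJ1, IGHJ2 and IGHD4-1 higher at 100 weeks.

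Since D joins J first, J use was also read within each D gene. The IGHJ4 share was lower at 100 weeks within all 10 D genes with at least 100 cells, with intervals apart in 4 of them. It was 37.9% and 16.2% within IGHD4-1, 26.2% and 18.03% within IGHD1-1, 42.0% and 23.5% within IGHD2-8, and 32.8% and 29.7% within IGHD3-2, the smallest difference. IGHJ1 was higher at 100 weeks within 9 of 10, the exception being IGHD3-2 with 2.65% and 1.35%. Its intervals were apart only in 2, at 26.6% and 32.0% within IGHD1-1 and at 6.73% and 16.5% within IGHD4-1. IGHJ2 was higher within 9 of 10, with intervals apart in 4 of them, and IGHD3-1 was the exception at 28.8% and 28.2%. Read the other way, IGHD4-1 took a larger share at 100 weeks of the cells of every J gene, from 1.90% to 6.67% of IGHJ1 cells, 5.07% to 10.6% of IGHJ2 cells and 5.40% to 9.91% of IGHJ3 cells, but only 5.95% to 6.56% of IGHJ4 cells. IGHD1-1 took 67.2% and 57.1% of IGHJ1 cells and 36.8% and 32.2% of IGHJ4 cells.

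The pairings with these D genes are shown on 1 cell each, with the bases matched to the D consensus in capitals. The top 2 join IGHD1-1 to IGHJ4, the pairing with fewer cells at 100 weeks, and the lower 2 join IGHD4-1 to IGHJ2, the pairing with more.
12 weeks IGHV5-15 IGHD1-1 IGHJ4: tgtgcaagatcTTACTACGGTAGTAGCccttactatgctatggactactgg
100 weeks IGHV1-81 IGHD1-1 IGHJ4: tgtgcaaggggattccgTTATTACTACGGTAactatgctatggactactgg
12 weeks IGHV1-54 IGHD4-1 IGHJ2: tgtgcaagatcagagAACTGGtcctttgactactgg
100 weeks IGHV1-5 IGHD4-1 IGHJ2: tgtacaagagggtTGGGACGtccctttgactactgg
The first pair encode 17 residues with 16 and 14 bases matched to the D consensus. The second pair encode 12 residues with 6 and 7 such bases. Each cell was picked at the median loop length of its pairing in its library, so these lengths were set by the choice. Over all cells, loops averaged 16.7 and 16.6 residues for IGHD1-1 with IGHJ4, and 12.1 at both ages for IGHD4-1 with IGHJ2.

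The lower IGHJ4 share was found in each subset of unswitched productive heavy chains listed here. Among cells with no light chain IGHJ4 was at 32.0% and 21.9%, with kappa alone at 32.8% and 23.0%, and with lambda alone, where intervals overlapped, at 30.1% and 21.7%. Within the IGHV1 family it was 28.7% and 20.3%, and in the other V families 36.5% and 24.1%. In Y-linked cells it was 32.6% and 23.0%, and in the 914 Xist cells of the older pool 20.2%. IGHJ2 stood at 24.7% and 31.2% in Y-linked cells and at 34.6% in the Xist cells, and IGHD4-1 at 5.05% and 7.48%, with 11.4% in the Xist cells. Cells with at least 2 pro-B markers had IGHJ4 at 31.6% and 22.2%, and those with fewer had 32.2% and 22.3%. The IGHJ4 gap was thus about as wide with as without these markers, while IGHJ2 was at 24.03% and 33.1% in cells with at least 2 markers and at 25.4% and 31.0% in the others.

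Contigs that cannot make a protein were read from the same libraries, because selection on the heavy-chain protein does not act on them directly. Non-productive heavy contigs were found in 869 cells at 12 weeks and 736 at 100 weeks. IGHJ4 was at 25.2% (22.4 to 28.2) and 22.4% (19.5 to 25.6) of them, IGHJ2 at 32.3% and 35.6%, and IGHJ1 at 12.3% and 12.1%. The difference in IGHJ4 had the same direction as in productive chains but was 2.78 percentage points instead of 9.89, with overlapping intervals. IGHD4-1 was at 3.67% (2.49 to 5.19) and 5.46% (3.89 to 7.42), and IGHD1-1 at 33.0% and 35.2%, opposite in order to productive chains. Contigs with a stop codon inside the CDR3 (407 and 344 cells) had IGHJ4 at 24.6% and 20.6%. Whether the gap differs between productive and non-productive contigs was not tested.

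**Figure D2:**
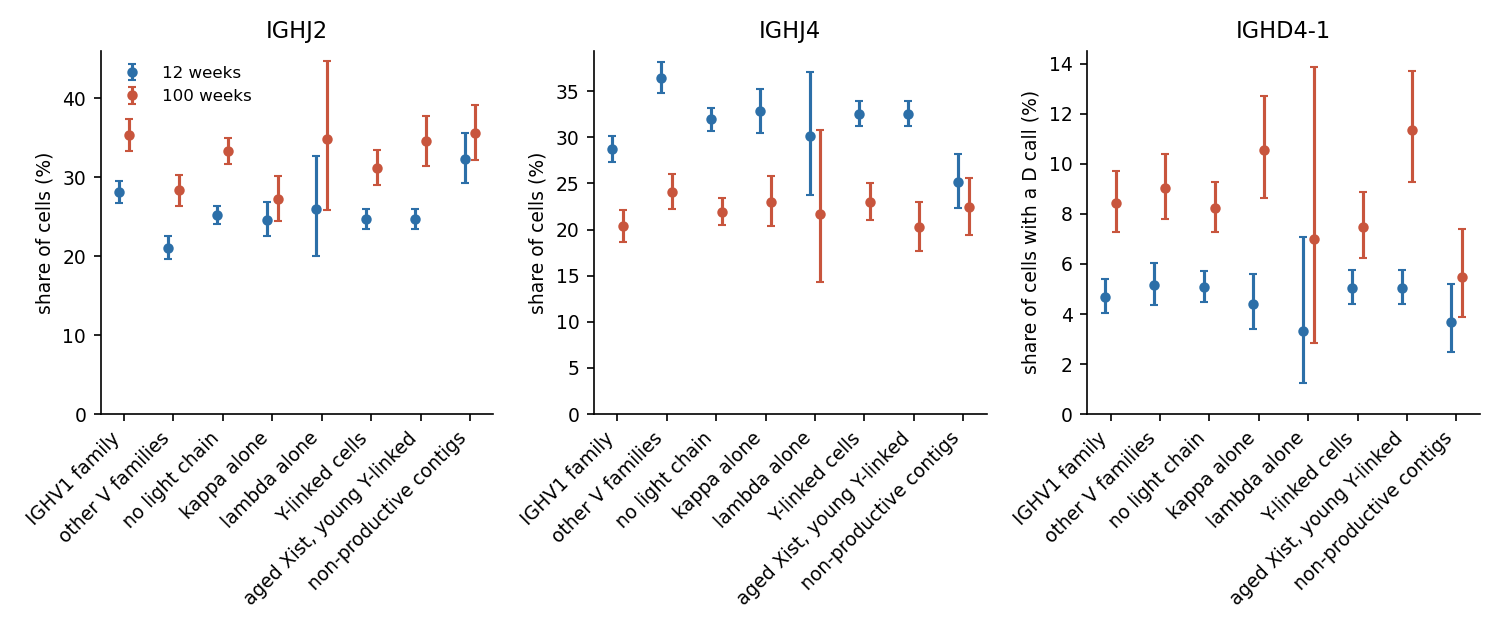
Shares (%) of IGHJ2, IGHJ4 and IGHD4-1 in subsets of cells of the 12-week and 100-week libraries, with exact 95% intervals; the Xist entry sets 100-week Xist cells against 12-week Y-linked cells. IGHJ4 is lower at 100 weeks in each subset, with the smallest gap, 25.2% against 22.4%, in non-productive contigs.

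For most pairs of V family and J gene, the ratio between ages was within 1.5-fold of that given by their separate shares. Within a library a pair could lie far from the product of those shares. IGHV10 with IGHJ2 stood at 0.324 of it at 12 weeks, and IGHV4 with IGHJ1 at 1.81 times it at 100 weeks. Of 42 pairs of V family and J gene with at least 40 cells, 12 (28.6%) had a share at least 1.5-fold higher at 100 weeks and 5 (11.9%) at least 1.5-fold lower. The highest ratios were IGHV10 with IGHJ2 (0.260% and 0.745% of cells, 2.86-fold), IGHV2 with IGHJ2 (0.630% and 1.58%, 2.51-fold), IGHV4 with IGHJ1 (2.27-fold), IGHV14 with IGHJ1 (2.21-fold) and IGHV5 with IGHJ2 (1.62% and 3.12%, 1.93-fold). The lowest were IGHV6 with IGHJ4 (1.12% and 0.466%, a ratio of 0.414), IGHV3 with IGHJ4 (0.463), IGHV10 with IGHJ4 (0.576), IGHV1 with IGHJ4 (16.4% and 10.4%, 0.637) and IGHV9 with IGHJ3 (0.647). None of the 12 higher pairs held IGHJ4 and 4 of the 5 lower ones did. All 12 pairs with IGHJ4 had a ratio below 1, and all 9 with IGHJ2 a ratio above 1.

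The V families themselves differed too. IGHV1, the largest family, found mostly on the far side of the V region, was at 57.0% (55.86 to 58.15) and 51.3% (49.8 to 52.8), while IGHV5 was at 8.29% and 11.1%, IGHV2 at 4.95% and 6.80% and IGHV14 at 3.36% and 4.66%. V genes within 0.5 Mb of IGHJ1 made up 13.96% (13.2 to 14.8) and 18.9% (17.7 to 20.1) of cells. When each pair's ratio was divided by the product of its V family and J gene ratios, only 2 pairs were at least 1.5-fold above 1, IGHV10 with IGHJ2 at 2.36 and IGHV7 with IGHJ3 at 1.78, and 1 was as far below, IGHV6 with IGHJ4 at 0.654. These 3 pairs held 19, 21 and 82 cells at 12 weeks and 32, 21 and 20 at 100 weeks.

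At the level of single V genes, 104 pairs had at least 40 cells, of which 17 (16.3%) were at least 1.5-fold higher at 100 weeks and 21 (20.2%) at least 1.5-fold lower. The highest were IGHV5-2 with IGHJ3 (14 and 26 cells, 3.16-fold), IGHV2-2 with IGHJ2 (2.95-fold), IGHV5-17 with IGHJ2 (2.51-fold), IGHV5-6 with IGHJ2 (2.41-fold) and IGHV5-2 with IGHJ2 (2.30-fold). The lowest were IGHV6-3 with IGHJ4 (49 and 9 cells, a ratio of 0.312), IGHV1-39 with IGHJ4 (0.349), IGHV1-69 with IGHJ3 (0.402), IGHV1-82 with IGHJ3 (0.409) and IGHV10-3 with IGHJ4 (0.410). All 5 pairs at the high end hold a gene of the IGHV2 or IGHV5 family, whose genes lie mostly on the D-proximal side of the V region.

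**Figure D3:**
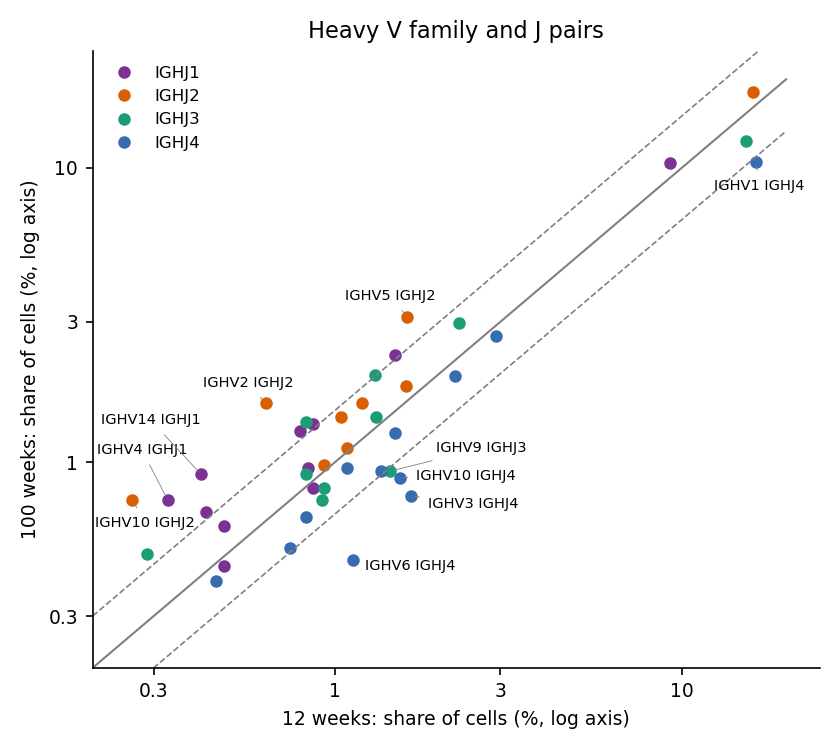
Share of unswitched heavy-chain cells (%) in each of 42 pairs of V family and J gene at 12 weeks (horizontal) and 100 weeks (vertical), both axes logarithmic, coloured by J gene. The solid line marks equal shares and the dashed lines 1.5-fold; all 12 IGHJ4 pairs lie below equality and all 9 IGHJ2 pairs above it.

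Heavy CDR3 loops were of nearly the same length at both ages. The mean was 14.41 residues at 12 weeks (SD 2.90 over cells) and 14.27 at 100 weeks (SD 2.87), counted from the conserved Cys to the conserved Trp, with medians of 15 and 14 and ranges of 5 to 24 and 6 to 26. Loops of at most 11 residues made up 15.8% (14.998 to 16.69) and 16.8% (15.7 to 17.9), and loops of at least 15 residues 50.7% (49.5 to 51.8) and 47.8% (46.3 to 49.3). Within a J gene the means differed less between ages than between the long pair, IGHJ1 and IGHJ4, and the short pair, IGHJ2 and IGHJ3: 15.87 and 15.70 for IGHJ1, 13.31 and 13.38 for IGHJ2, 13.50 and 13.33 for IGHJ3, and 15.24 and 15.26 for IGHJ4. With the J genes of the 100-week cells weighted as at 12 weeks, the older mean was 14.36. By D gene, IGHD1-1 loops averaged 15.67 residues at both ages, IGHD4-1 loops 12.79 at both, and loops with no D call 10.48 and 10.35. The widest differences among D genes were in IGHD5-7 loops, at 12.42 and 11.87 residues over 104 and 70 cells, and in IGHD2-8 loops, at 14.88 and 14.35. Of IGHD2-8 loops, 56.7% (51.5 to 61.7) and 45.2% (38.7 to 51.9) had at least 15 residues.

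Loops were shorter in the Xist cells of the older pool, with a mean of 13.91 residues and 20.7% at 11 residues or fewer. In Y-linked cells the means were 14.42 and 14.38, and the shares of short loops 15.8% and 15.4%. The difference in mean was thus smaller among Y-linked cells than between the whole libraries.

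**Figure D4:**
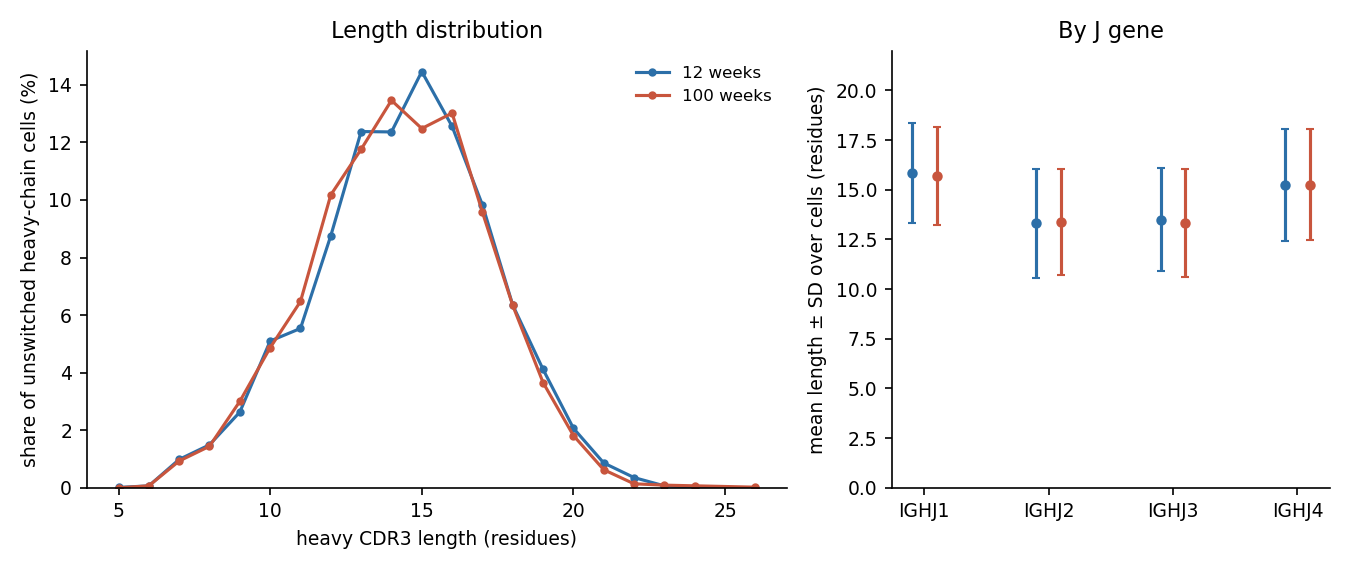
Left: share of unswitched heavy-chain cells (%) at each heavy CDR3 length in residues, for the 12-week and 100-week libraries. Right: mean length by J gene with the SD over cells. Cells with IGHJ1 and IGHJ4 have longer loops than those with IGHJ2 and IGHJ3 at both ages.

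The joints themselves were also alike. Of unswitched cells, 5709 (78.2%) and 3308 (77.0%) had a CDR3 that could be split into V, D and J parts with templates built from the deposited sequences. Bases outside the matches to these templates are called untemplated here. Some D templates run longer than the gene, as for IGHD2-4 with 20 bases against 17, so some added bases can count as matched. The split joints held a mean of 7.77 and 7.74 untemplated bases (median 7 at both ages). Of these, 4.66 and 4.56 lay between V and D and 3.11 and 3.18 between D and J. No untemplated base was found in 1.07% (0.818 to 1.37) and 1.15% (0.814 to 1.57). The D match was 12.6 and 12.4 bases long, and the J match fell 4.33 and 4.23 bases short of its template. Bases lost from V cannot be told apart from V genes with other ends, so V trimming is not given.

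Recombination genes were read in the gene-expression libraries of the same cells, as CPM of summed UMIs. The intervals of these values cover counting error of the UMIs only, not the spread between cells or mice. In cells with a heavy chain and no light chain, Dntt was 101 CPM (97.3 to 104) at 12 weeks and 230 CPM (224 to 237) at 100 weeks, the only 1 of 14 recombination genes past 1.5-fold in either direction. Rag1 was 98.8 and 96.3 CPM, and Rag2 81.2 and 91.6 CPM. In cells with neither chain, Dntt was 1350 and 1276 CPM, Rag1 124 and 103 CPM, and Rag2 138 and 122 CPM; Polm, a polymerase of end joining, was the only gene past 1.5-fold there, at 21.9 and 11.3 CPM. In cells with both a heavy and a light chain, Dntt was 101 and 190 CPM, Rag1 164 and 162 CPM, and Rag2 87.8 and 100.3 CPM, and besides Dntt only Nhej1, an end-joining factor, was past 1.5-fold, on 3 and 9 UMIs. The Dntt difference in heavy-chain cells goes with the larger share of cells with pro-B markers, of which Dntt is one, and the part of that share in it was not tested.

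The makeup of the loop differed for some residues, both with J use and within J genes. Loop residues (75931 and 44123 in all) were taken without the first 3 and the last residue of the CDR3. Tyrosine, which dominates murine heavy loops, made up 24.6% and 23.5% of them, glycine 10.3% and 10.2%, aspartate 11.3% and 11.5%, serine 7.38% and 6.93%, and arginine 3.82% and 4.11%. The mean net charge (Arg and Lys less Asp and Glu) was -0.916 and -0.883, and 10.3% and 10.5% of loops were positively charged. Other residues, chosen after their values were seen, were methionine at 3.19% and 2.49%, valine at 4.59% and 5.41% and threonine at 3.08% and 3.83%. Phenylalanine was at 6.17% and 7.06%, and alanine at 7.32% and 6.71%. Methionine is encoded by the IGHJ4 start, and within IGHJ4 cells it was 8.70% and 8.95%.

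Threonine, serine and tyrosine differed within J genes. Threonine was higher at 100 weeks within each J gene, at 3.50% and 4.14% for IGHJ1, 4.01% and 4.46% for IGHJ2, 2.27% and 3.14% for IGHJ3 and 2.80% and 3.41% for IGHJ4. Serine was lower within each, most in IGHJ3 with 8.14% and 7.03%. Tyrosine was lower within IGHJ1 (21.0% and 19.1%), IGHJ2 (27.3% and 26.5%) and IGHJ3 (21.8% and 20.2%) and not within IGHJ4 (26.9% and 27.1%).

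Loops with a mean Kyte-Doolittle hydropathy above 0, called hydrophobic here, were more frequent at 100 weeks. They made up 20.8% (19.8 to 21.7) and 23.5% (22.2 to 24.8) of cells. Within IGHJ1 the shares were 27.0% and 31.9%, within IGHJ3 28.5% and 34.0%, within IGHJ2 16.1% and 16.3% and within IGHJ4 14.8% and 13.97%. The D reading frame also differed for some D genes: a D gene can be read in 3 frames, of which 1 is rich in tyrosine in most mouse D genes. IGHD1-1 was read in its tyrosine frame in 66.3% (64.5 to 68.1) and 63.3% (60.7 to 65.8) of split joints, and in its hydrophobic frame in 27.8% (26.1 to 29.5) and 32.1% (29.7 to 34.6). IGHD2-4 was read in its tyrosine frame in 81.4% and 72.4%, and in a more hydrophobic frame in 4.09% (2.80 to 5.76) and 12.8% (9.85 to 16.3). IGHD2-6 was at 92.7% and 87.3% in its tyrosine frame, and IGHD2-3 at 73.6% and 74.0%.

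A light chain was paired with the heavy chain in about as many cells at either age. Of unswitched heavy-chain cells, 1784 (24.4%, 23.5 to 25.4) at 12 weeks and 1131 (26.3%, 25.02 to 27.7) at 100 weeks had a productive light contig. Kappa alone was found in 21.2% and 23.1%, lambda alone in 2.69% and 2.47%, and both in 41 cells (0.562%) and 34 cells (0.792%). In Y-linked cells the share with a light chain was 24.5% and 24.1%, in the other order. Lambda alone made up 10.99% (9.57 to 12.5) and 9.37% (7.74 to 11.2) of cells with a light chain. By heavy J gene, a light chain was found in 24.8% and 29.4% of IGHJ1 cells, 24.2% and 23.1% of IGHJ2 cells, 24.3% and 27.2% of IGHJ3 cells and 24.7% and 27.1% of IGHJ4 cells. By heavy loop, it was found in 25.1% and 27.3% of cells with at most 11 residues and in 24.95% and 28.1% of those with at least 18, so the share was alike in short and long loops.

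Kappa rearrangement can repeat on an allele, with later joins using J genes further downstream, from IGKJ1 toward IGKJ5. Kappa cells without a switched heavy chain, called unswitched here, included 109 of 1697 and 167 of 1192 with no heavy chain. In unswitched kappa cells IGKJ1 was at 30.6% and 31.1%, IGKJ2 at 21.7% (19.8 to 23.8) and 27.0% (24.5 to 29.6), IGKJ4 at 18.9% (17.02 to 20.8) and 14.8% (12.88 to 16.996), and IGKJ5 at 28.8% and 27.0%. The intervals of IGKJ2 and IGKJ4 did not overlap between the ages. Without CDR3s of 5 residues, a class with more cells at 100 weeks, IGKJ2 was at 21.8% and 25.1% with overlapping intervals. IGKJ4 was then at 18.8% (16.995 to 20.8) and 15.2% (13.2 to 17.4), also overlapping. In Y-linked cells IGKJ2 was at 22.6% and 24.4% and IGKJ4 at 18.1% and 13.9%, with overlapping intervals. V genes more than 2 Mb from IGKJ1 made up 38.3% (36.0 to 40.7) and 42.5% (39.7 to 45.4) of kappa chains other than those of 5 residues.

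Of 24 pairs of kappa V family and J gene with at least 40 cells, 3 (12.5%) were at least 1.5-fold higher at 100 weeks and 3 (12.5%) at least 1.5-fold lower. The higher pairs were IGKV6 with IGKJ2 (10 and 48 cells, 0.589% and 4.03%, 6.83-fold), IGKV9 with IGKJ1 (1.69-fold) and IGKV1 with IGKJ5 (1.51-fold). Of the 48 older cells of the first pair, 30 carried 1 recurrent IGKV6-15 sequence of 5 residues, and without it the pair was at 0.589% and 1.55% (18 cells), 2.63-fold. The lower ones were IGKV5 with IGKJ2 (0.475), IGKV8 with IGKJ4 (0.545) and IGKV4 with IGKJ4 (0.635). With 1 cell per distinct sequence only 8 pairs had 40 cells, of which 0 were higher and 1 lower. By family, IGKV6 had the widest difference, at 4.07% (3.18 to 5.12) and 8.31% (6.80 to 10.02), and was at 4.07% and 5.94% (4.65 to 7.46) without the recurrent sequence, with overlapping intervals. IGKV8 was at 15.4% and 11.6%, with intervals apart. IGKV1, at 14.4% and 18.1%, IGKV4, at 20.2% and 16.9%, and IGKV11, at 1.77% and 0.671%, had overlapping intervals. Kappa CDR3s had 11 residues in 76.3% and 76.0% of cells. The 5-residue class held 3 cells (0.177%, 0.0365 to 0.516) at 12 weeks and 30 (2.52%, 1.70 to 3.57) at 100 weeks. All 30 older cells carried the recurrent sequence, and with 1 cell per distinct sequence the order turned, to 3 of 814 (0.369%) and 1 of 644 (0.155%).

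No lambda V, J or constant gene had intervals apart between the ages. IGLV1 was at 60.6% and 62.0% of unswitched lambda cells (259 and 158, counting those with no heavy chain), IGLV2 at 33.2% and 31.6% and IGLV3 at 6.18% and 6.33%. The J gene was IGLJ1 in 43.2% and 37.3%, IGLJ2 in 39.4% and 37.3% and IGLJ3 in 17.4% and 25.3%. The constant gene was IGLC1 in 43.2% and 37.3%, IGLC2 in 37.8% and 36.7% and IGLC3 in 18.9% and 25.9%. All these intervals overlapped between the ages. Few sequences carried much of the repertoire, and the 3 most frequent are shown with the bases after their shared start in capitals.
IGLV1 IGLJ1: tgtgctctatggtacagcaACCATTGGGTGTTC
IGLV1 IGLJ3: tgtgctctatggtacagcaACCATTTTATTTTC
IGLV2 IGLJ2: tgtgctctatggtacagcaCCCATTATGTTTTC
They were found in 55 (21.2%) and 38 (24.1%) cells, 30 (11.6%) and 22 (13.9%) cells, and 51 (19.7%) and 37 (23.4%) cells.

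Light-chain sequences recurred between the libraries and heavy-chain sequences hardly did. Of distinct rearrangements by V, J and CDR3 nucleotides, 309 kappa sequences occurred at both ages (38.0% of 814 at 12 weeks and 48.0% of 644 at 100 weeks), and 18 lambda sequences (36.7% of 49 and 69.2% of 26). Only 3 heavy sequences did, of 7135 and 4122 (0.0420% and 0.0728%), and 41 by amino acids. Examples are shown with the D bases in capitals, and each was found in 1 cell of either library under different barcodes.
IGHV1-39 IGHJ3: tgtgcaagaggggcttactgg
IGHV1-72 IGHD1-1 IGHJ1: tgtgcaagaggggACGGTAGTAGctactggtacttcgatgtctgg
The first has no D call and encodes 7 residues, and the second encodes 15 and ends in the whole IGHJ1 start. Within a library, heavy sequences found in at least 2 unswitched cells covered 306 cells (4.19%) at 12 weeks and 311 (7.24%) at 100 weeks, and the largest such group held 8 cells at both ages.

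Switched constant genes were rare at both ages and more frequent at 100 weeks. IGHM was the constant gene of 7294 (99.8%) and 4291 (98.3%) heavy-chain cells and IGHD of 3 and 4. Switched cells were 14 of 7311 (0.191%, 0.105 to 0.321) at 12 weeks and 71 of 4366 (1.63%, 1.27 to 2.05) at 100 weeks. The shares were 0.217% and 0.901% in Y-linked cells, and 0.140% and 1.17% with 1 cell per distinct sequence. IGHA was found in 7 (0.0957%) and 31 (0.710%) cells, IGHG2C in 2 (0.0274%) and 31 (0.710%), and IGHG2B in 5 and 5. IGHG1 was found in 4 cells at 100 weeks and in 0 of 7311 at 12 weeks, which allows a share of up to 0.0410%. IGHG3 and IGHE were found in no cell of either library.

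**Figure D5:**
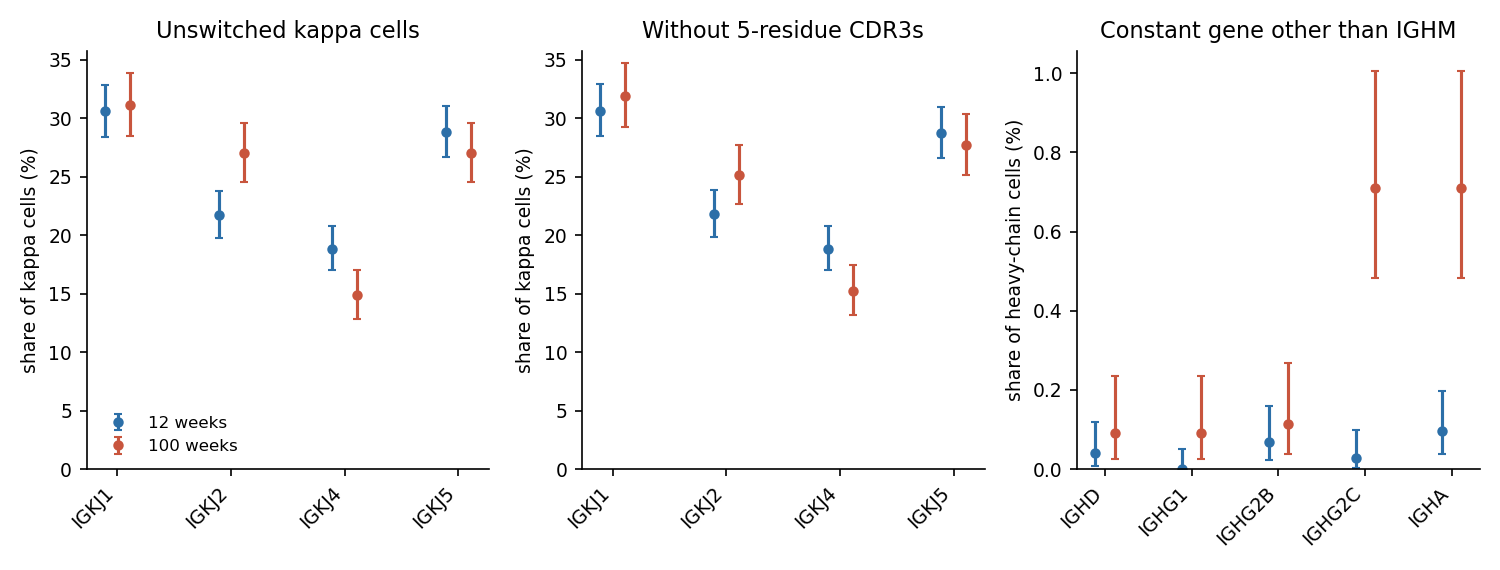
Left and middle: share (%) of each kappa J gene in kappa cells without a switched heavy chain, with all such cells and without 5-residue CDR3s. Right: share (%) of heavy-chain cells by constant gene other than IGHM. Points are the 12-week and 100-week libraries and bars exact 95% intervals; IGHG2C and IGHA reach 0.710% at 100 weeks and stay under 0.1% at 12 weeks.

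The switched cells of both libraries included some with high and some with low Jchain, in different proportions. At 12 weeks the 14 cells held 10 distinct heavy sequences, with a median of 321.5 heavy UMIs, and 7 had Jchain (the joining chain of secreted IgM and IgA, high in plasma cells) at 10 or more per 10000 UMIs, with 613 to 3806 heavy UMIs each. A further 5 were below that level, with a median of 2 heavy (1 to 30) and 5 light UMIs. At 100 weeks the 71 cells held 50 distinct sequences with a median of 5 heavy UMIs. Of these, 11 had Jchain at that level (median 870 heavy UMIs), and 57 were below it, with a median of 4 heavy and 45 light UMIs; the remaining 3 were not in the gene-expression matrix. A light chain was found in 68 of the 71, kappa in 67 and lambda in 1. Thus most switched cells of the older library had few heavy-chain UMIs, fewer than the median of 14 for all heavy chains there. Whether their contigs came from the cell itself or from free RNA was not tested. Of the 12 and 62 switched cells kept in the gene-expression libraries, 41.7% and 83.9% carried at least 2 of the 5 mature B markers. In unswitched cells with a heavy and a light chain these shares were 20.9% and 18.5%. At least 2 pro-B markers were found in 16.7% and 11.3% of the switched cells, and in 16.2% and 22.9% of the unswitched ones.

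A single clone made up much of the IGHG2C class. It is shown with its D bases (IGHD1-1) in capitals, with the kappa chain that went with it.
IGHV1-64 IGHJ1 heavy: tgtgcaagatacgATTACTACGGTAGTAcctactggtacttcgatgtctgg
IGKV6-15 IGKJ2 kappa: tgtcctctcacgttc
As the heavy contig of most UMIs, the heavy sequence, of 17 residues, was found in 18 cells at 100 weeks, 17 with IGHG2C and 1 with IGHM. Counting every productive heavy contig, 24 contigs at 100 weeks carried it. At 12 weeks it was found in 0 cells, where 0 of 7311 allows up to 0.0410%. Its median was 3.5 UMIs, 17 of the 18 cells carried the kappa sequence, 17 had Xist UMIs alone and 0 had Y-linked UMIs alone, and 0 had Jchain at 10 or more per 10000. The kappa sequence, of 5 residues, was found more widely, in 54 cells (4.29% of 1259) at 100 weeks and in 0 of 1708 at 12 weeks, which allows up to 0.176%. Its median was 48 UMIs against 15 for all kappa chains of that library. By heavy contig of most UMIs, 16 of the 54 cells carried the clone's heavy chain in switched form and 1 in unswitched form. Another switched heavy chain was found in 8, another unswitched one in 21, and none in 8. Cells counted under another heavy chain could also hold the clone's chain in a further contig, which was not counted. Of the 54, 39 had Xist UMIs alone and 6 Y-linked ones alone. More than 1 productive heavy contig was found in 11 of the 46 with a heavy chain, against 5.25% of all heavy-chain cells of that library. Whether the kappa contigs came from each cell itself, from doublets or from free RNA was not tested, so the 54 cells cannot be read as 54 members of 1 clone.

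Without the cells of the clone, 54 switched cells with 49 distinct heavy sequences remained at 100 weeks, 46 of them seen in 1 cell, and the mean CDR3 length was 14.3 residues. Their J genes were IGHJ1 in 15, IGHJ2 in 20, IGHJ3 in 8 and IGHJ4 in 11.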

How the data were processed

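Gene-expression and V(D)J libraries of single cells came from the V(D)J reagent kit of 10x Genomics, per the labels' protocols. The authors processed reads with Cell Ranger on mm10, per the submitters' processing notes, with the release not given in the sources used here; a matrix header gives version 3.0.1. The deposited contig tables hold, per the file headers, counts of reads and UMIs per contig, all of high confidence and in called cells, the matrices counts of UMIs per gene and cell, and the clonotype tables cell counts and the fraction of cells per clonotype. Clonotypes served only as an alternative.

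Per cell and locus the productive contig of most UMIs was used; cells with IGHG, IGHA or IGHE were kept apart. Doublets were not called: cells with more than 1 productive heavy contig were left out as an alternative. Joints were split with V, D and J templates grown from the deposited CDR3 sequences (majority 0.55, D match of at least 6 bases). The step was tested on joints simulated from the same templates with D lightly trimmed. Errors in the templates or with heavily trimmed D segments could therefore not show. Library totals were 31404 and 22207 contigs. Barcodes joined the V(D)J and gene-expression libraries, and cells there had at least 500 UMIs, 300 genes and at most 10% mitochondrial UMIs. Named were every J, lambda V and heavy constant gene, D genes with at least 100 cells, and the 5 pairs of highest and lowest ratio. A B-lineage marker and a shared heavy sequence are not reported here. Members, lists and tests were chosen with earlier results of these data known. Python 3.11.15, pandas 2.3.3, SciPy 1.17.1, NumPy 2.4.6, Biopython 1.88 and Matplotlib 3.10.9 were used.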

Additional observations from a re-analysis of the deposited data

How the results depend on the processing

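Each share or mean was recomputed under 5 to 16 of 21 settings, and 594 of 621 differences between the ages (100 less 12 weeks) kept their sign. The difference ranged from -12.3 to -9.36 percentage points for IGHJ4, from 3.25 to 9.83 for IGHJ2, from 2.44 to 6.31 for IGHD4-1 and from -6.37 to -4.66 for IGHD1-1. No paired analysis was possible because each age had 1 library. Cells of the same pool share 2 mice, and the sex of the cells separates parts of a pool, not replicates.

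With 1 cell per V, J and CDR3 sequence, the differences became 5.12 points for 11-residue kappa CDR3s, -0.213 for 5-residue ones (the other direction) and 1.03 for switched cells. In cells with a light chain they became 5.84 points for IGHD4-1, 3.25 for IGHJ2 and -1.78 for tyrosine, and turned for IGHJ2 within IGHD1-1 (-0.733) and arginine (-0.0436). Among Y-linked cells they became 2.44 points for IGHD4-1, 1.82 for IGKJ2 and 0.685 for switched cells, and -0.353 for cells with a light chain, the other direction. With 100-week Xist cells set against 12-week Y-linked cells they became 6.31 for IGHD4-1, 9.83 for IGHJ2, -12.3 for IGHJ4, 10.3 for IGKJ2, -5.18 for 11-residue kappa CDR3s and 2.86 for switched cells, and -0.507 residues for heavy CDR3 length. Kappa cells with no heavy chain gave 10.99 points for IGKJ2. The cause of these shifts was not tested.

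Template majorities of 0.5 and 0.6, removal of the recurrent kappa sequence and a split by pro-B markers were added after seeing the data. Cells with at least 2 pro-B markers gave 2.48 points for IGHD4-1 and 9.10 for IGHJ2, and without the recurrent kappa sequence the 5-residue class gave -0.177, the other direction.

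At 2-fold, 4 heavy V family pairs were higher and 2 lower, 8 heavy V gene pairs were higher and 13 lower, and 1 kappa pair was higher and 1 lower. With at least 20 cells, 40 heavy V gene pairs were higher and 39 lower of 209, and 8 kappa pairs were higher and 6 lower of 46. With 1 cell per sequence, 0 kappa pairs were higher and 1 lower of 8.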
